A study of Homo sapiens with 24 samples.

Results

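The lymphoma line U2932, treated for 48 h with either of 2 reagents aimed at MYC, was compared between those reagents across all genes. U2932 is a human cell line from a diffuse large B cell lymphoma, labelled here as bone marrow tissue. The comparison took the 4 libraries labelled PNA2 and the 4 labelled siRNA at 48 h, by their column names, 8 of the series' 24 libraries. The 6 PBS control libraries of the same time, labelled wild type, were used to join 2 batches and as the untreated level. PNA2, a gamma peptide nucleic acid, was added at 8 mM, as the labels write a dose whose unit is doubtful, to 200000 cells per well. The siRNA was electroporated at 500 nM into 5000000 cells, and both groups carry the genotype entry of a MYC knockdown. All cells grew in RPMI medium with 10% serum. No electroporated control and no unrelated PNA are among the samples used, so reagent, delivery, dose and cell number cannot be told apart. Each siRNA library has its own cell line entry, from U2933 to U2936, while the treatment text names U2932 throughout. The labels do not say that replicates are separate cultures, so the p-values measure only the spread between these libraries.

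A gamma peptide nucleic acid is a DNA mimic with a peptide-like backbone that binds matching strands, and the series' title describes it as directed at DNA. An siRNA instead guides the RNA interference machinery to a matching mRNA, which is then cut. MYC itself is a transcription factor that pairs with MAX at E-box sites and is known for raising ribosome production, nucleotide synthesis and cell cycle entry in B cell lymphomas. NF-kB, a family of transcription factors held in the cytoplasm by inhibitors such as NFKBIA, drives survival genes in many lymphomas of this kind.

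Library totals of the deposited values ran from 14881651 to 16033819 in PNA2, 12625943 to 16167951 in siRNA and 11121494 to 14460806 in PBS. Ties among low values separated 2 batches that the labels do not name. The 4 siRNA libraries, PNA2 replicates 1 and 2 and 3 PBS libraries formed the first, and PNA2 replicates 3 and 4 with the other 3 PBS libraries the second. PNA2 replicate 2 stood apart from its group. The SD of its log2 values from the mean of the other PNA2 libraries was 0.509 over 9638 genes, against 0.220 to 0.321 for the other PNA2 libraries and 0.0985 to 0.130 for siRNA. It differed by over 2-fold from the others of its group in 339 genes. Values are therefore also given without it for many, though not all, of the gene groups and genes that it moves.

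MYC (ENSG00000136997, GRCh38 chromosome 8, 127735434 to 127741434, forward strand) was higher in the libraries labelled PNA2 than in those labelled siRNA. Its values, scaled per library and here called scaled values, were 7224, 7362, 7908 and 8959.8 in PNA2 replicates 1 to 4. They were 3609.8, 3991, 4209 and 3632 in siRNA replicates 1 to 4. The 2 groups did not overlap, and the 6 PBS libraries lay between 5485 and 7693. The log2 difference, PNA2 minus siRNA, was 1.05 (SE 0.11, limma adjusted p = 2.28e-05). An exact two-sided permutation test of the 8 scaled values gave p = 0.0286 over 70 arrangements. Inside the shared batch, with PNA2 replicates 1 and 2 only, the same exact permutation test gave p = 0.0667, the smallest that its 15 arrangements allow. Against PBS, the PNA2 difference of 0.24 did not pass the test (limma adjusted p = 0.096) and the siRNA difference of -0.81 did (limma adjusted p = 0.000318). The MYC transcript thus goes against the knockdown entry of the libraries labelled PNA2, and that wording is kept for them.

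**Figure D1:**
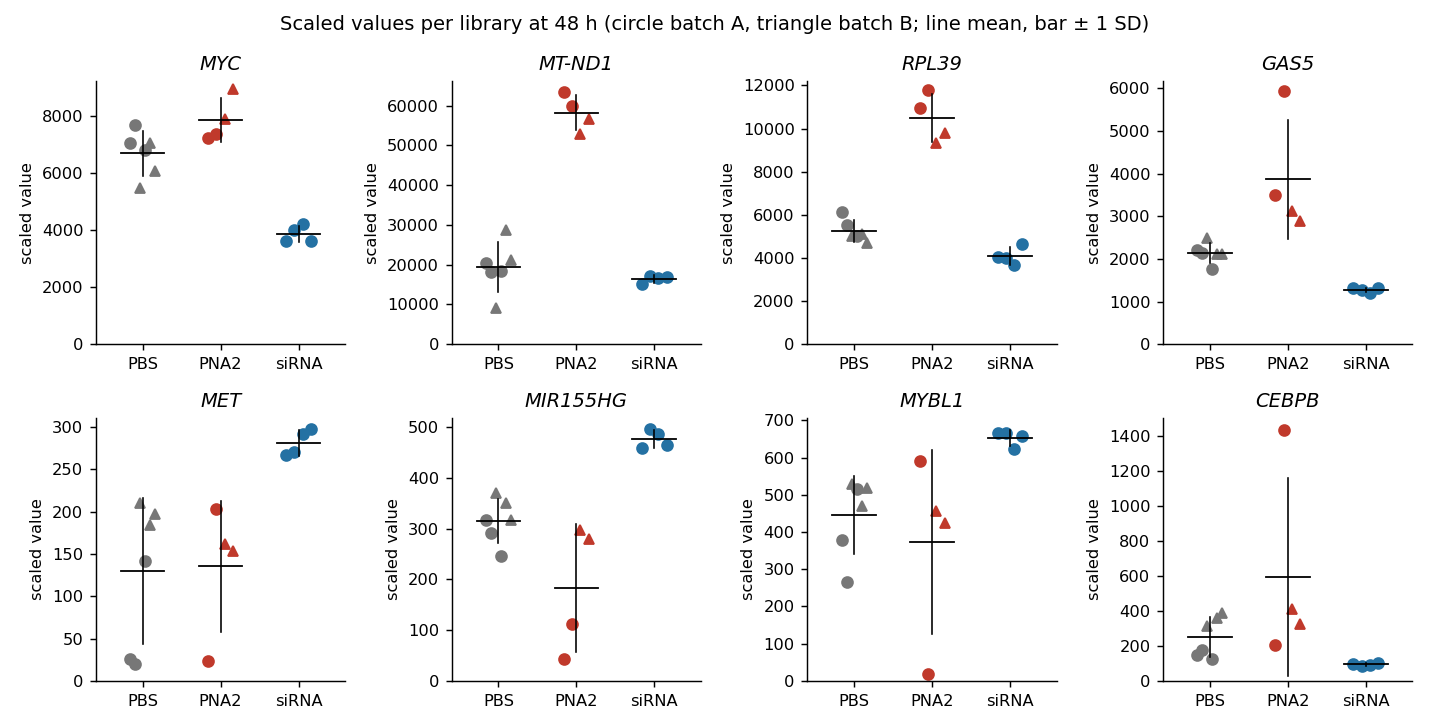
Scaled value (linear axis from 0) of MYC, MT-ND1, RPL39, GAS5, MET, MIR155HG, MYBL1 and CEBPB in each PBS, PNA2 and siRNA library at 48 h; each point is 1 library (circles the first batch, triangles the second), with the group mean and ± 1 SD. The PNA2 and siRNA points do not overlap for any of the 8 genes, which were picked after their values were seen. Apart from MYC, the rule for naming them required this. PNA2 replicate 2 lies far from its group for MYBL1 and CEBPB.

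Of 14136 genes tested, 1630 (11.5%) were higher and 1746 (12.4%) lower in PNA2 than in siRNA at a limma adjusted p under 0.05. The difference exceeded 2-fold for 223 of the higher and 483 of the lower genes. Among these called genes, the 4 values of each group did not overlap for 1455 of the higher and 1492 of the lower. A call itself favours such genes, and the share over all genes tested was not counted. These counts are thus no separate support for the calls. Within the shared batch alone, 996 of the higher and 1101 of the lower genes were also called. The 12 largest differences in each direction, most of them described below, were picked partly because their groups do not overlap. For them a lack of overlap is therefore no support. TTN at 1.58, GNB3 at -3.08, MIR3142HG at -3.08 and TMOD2 at -2.15 are among them and are not described further. By the share of members called, the mitochondrial genome, ribosomal proteins and snoRNA host genes led the higher side. NF-kB targets, cytokine feedback genes and germinal centre and plasma cell genes led the lower side. The median log2 difference over all genes was -0.01, the level against which each list below is set. Without PNA2 replicate 2, 1890 genes were higher and 2044 lower of 14029 tested. That is the background for list counts given without it, so part of a rise in them is general.

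**Figure D2:**
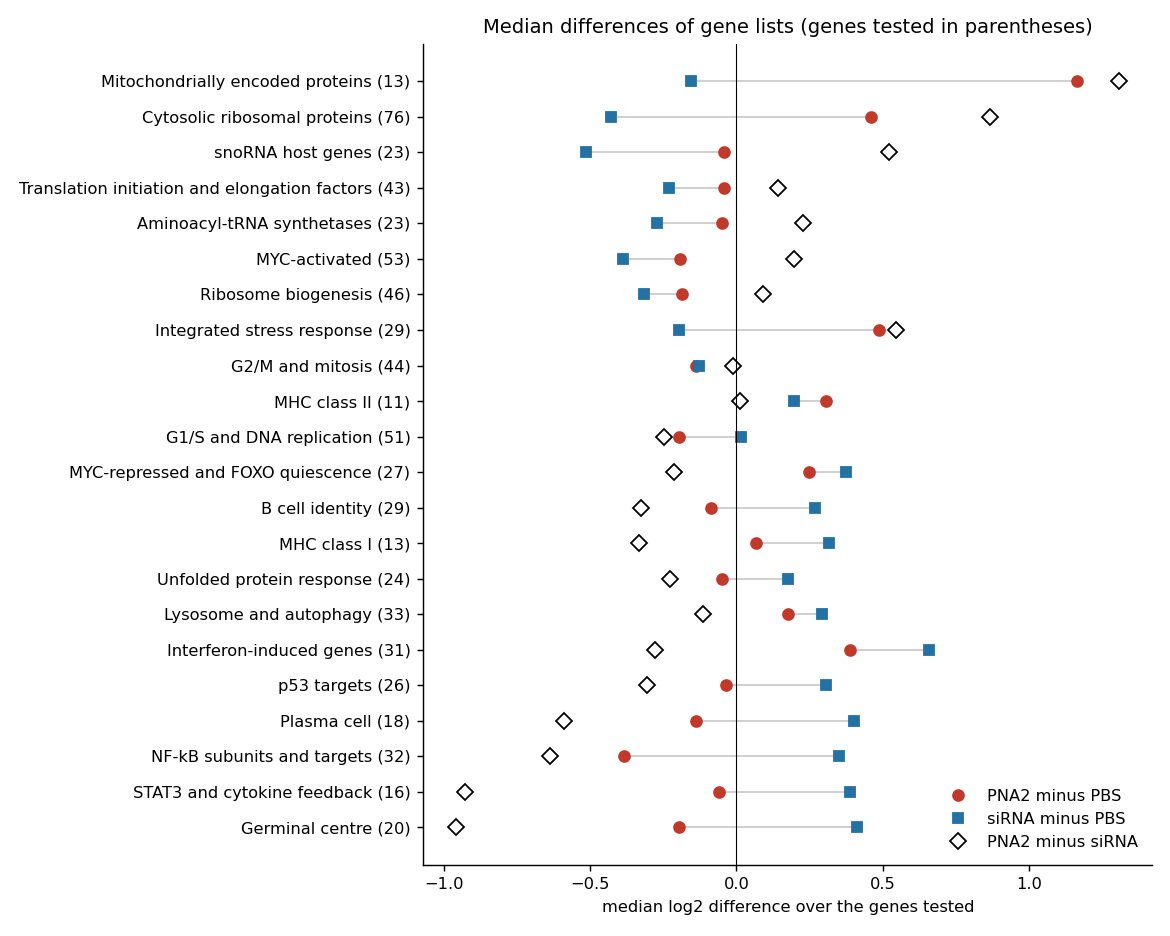
Median log2 difference (horizontal axis) of 22 gene lists, with PNA2 minus siRNA as open diamonds and each reagent minus PBS as circles and squares. By PNA2 minus siRNA, mitochondrially encoded genes lie farthest to the right at 1.31, ribosomal proteins follow at 0.87, and germinal centre genes lie farthest to the left at -0.96.

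The mitochondrial genome encodes 13 proteins of the respiratory chain and ATP synthase, and 11 of these 13 genes were higher in PNA2 while 0 were lower, with a median log2 difference of 1.31. After quantile normalization in place of scaling per library the median was 0.74, with 9 higher and 0 lower. MT-ND1, a complex I subunit, read 63444, 59989, 52934 and 56587 in PNA2 and 15025, 17201, 16529 and 16880 in siRNA. Every PNA2 library was thus more than 3-fold above every siRNA library. Its log2 difference was 1.89 (SE 0.25, limma adjusted p = 0.000111). MT-ND2 of the same complex differed by 1.75, MT-ND4 by 1.67 and MT-ND4L by 1.68. MT-ATP6, an ATP synthase subunit, read 62456, 32397, 43347 and 46172 in PNA2, a spread of nearly 2-fold with replicate 2 lowest, and 15419.7, 17983, 16879.5 and 16705 in siRNA. MT-CO3, a cytochrome oxidase subunit, differed by 1.31 (SE 0.29). The values of MT-ATP8 and MT-ND6 did not pass the test, at 2.44 and 0.73. MT-ND6 did pass without PNA2 replicate 2, at 1.21. MT-ND4L overlaps MT-ND4, MT-ATP8 overlaps MT-ATP6 and MT-ND6 lies antisense, and the strand setting of the counting is not given in the sources used here, so reads of these genes may be shared.

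As a share of the library total, all genes of the mitochondrial genome, its ribosomal RNAs included, took 6.20%, 5.09%, 4.93% and 5.24% in PNA2 and 2.08%, 2.37%, 2.19% and 2.31% in siRNA. The means were 5.36% ± 0.575 (SD, n = 4) and 2.24% ± 0.132 (SD, n = 4), with an exact two-sided permutation p of 0.0286. PBS libraries held 1.53% to 3.21%, so the siRNA values lay inside the PBS range and the PNA2 values above it. Within the shared batch the difference was 3.41 percentage points, with an exact permutation p of 0.0667. Against PBS, where 8.11% of all genes were higher and 8.58% lower in PNA2, and 9.3% higher and 8.13% lower in siRNA, 11 of the 13 genes were higher in PNA2 and 0 higher or lower in siRNA. These comparisons share libraries, so their values stand side by side only.

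Nuclear genes of the same organelle had smaller medians. Of 77 nuclear respiratory chain subunits, 15 were higher and 2 lower, with a median of 0.13. Leaving out PNA2 replicate 2 made these 35 higher, 2 lower and 0.23. Mitochondrial ribosomal proteins had 16 of 75 higher, 2 lower and a median of 0.09, against 29, 1 and 0.18 without that library. For factors of mitochondrial transcription and RNA stability the count was 5 higher and 2 lower of 29, and 9 higher and 1 lower without it.

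Cytosolic ribosomal proteins build the translating ribosome, and 73 of 76 were higher in PNA2 with 0 lower, at a median log2 difference of 0.87. After quantile normalization the median was 0.54, with 64 higher and 0 lower. RPL39 (ENSG00000198918, GRCh38 chromosome X, 119786504 to 119791643, reverse strand), a small protein of the exit tunnel, read 10955, 11798, 9354 and 9816 in PNA2 and 4034, 3976, 3682 and 4642 in siRNA. The lowest PNA2 library was about 2-fold above the highest siRNA library, and the log2 difference was 1.46 (SE 0.09, limma adjusted p = 2.47e-07). RPS29, RPS18 and RPL34 followed with log2 differences of 1.30, 1.25 and 1.20. The 3 members that did not pass were FAU at 0.17, RPL17 at 0.14 and RPS10 at -0.32, of which FAU passed without PNA2 replicate 2, at 0.37. As a share of all counts the list took 9.67% to 10.8% in PNA2, 6.19% to 6.40% in siRNA and 6.67% to 8.57% in PBS. Against PBS its median was 0.46 in PNA2, with 66 of 76 higher, and -0.43 in siRNA, with 66 lower. Ribosomal protein genes have many near-identical copies in the genome, so how their reads were assigned makes single values uncertain.

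**Figure D3:**
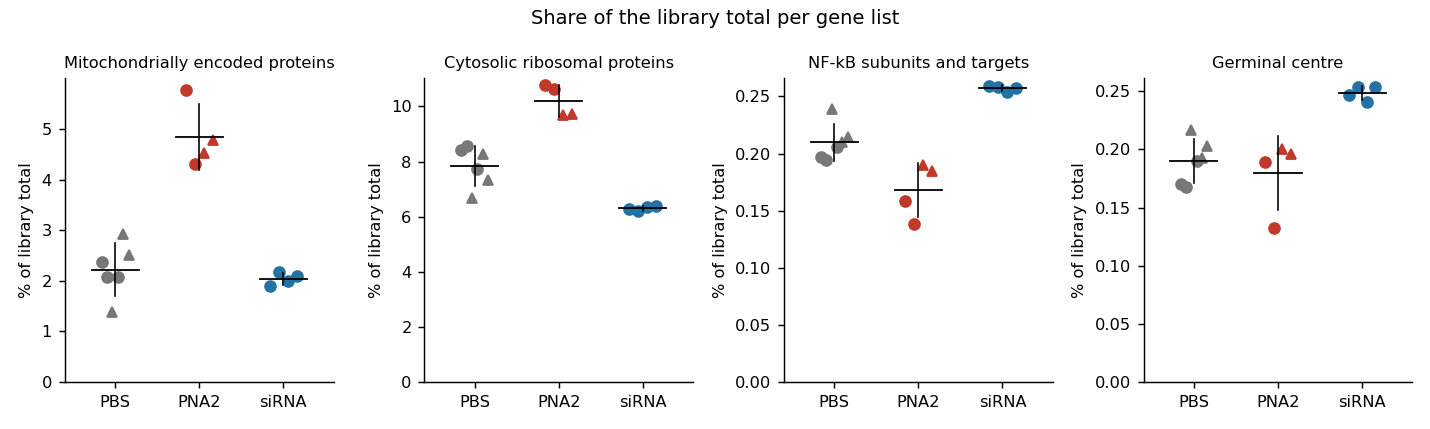
Percent of each library's total taken by selected gene lists at 48 h, 1 point per library for PBS, PNA2 and siRNA, with the group mean and ± 1 SD (vertical axes in percent from 0). The 13 mitochondrial protein genes take 4.30% to 5.78% in PNA2 and 1.89% to 2.16% in siRNA, and the ribosomal protein shares are 9.67% to 10.8% and 6.19% to 6.40%.

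Ribosomal protein mRNAs are known for a pyrimidine run at their start, the sequence through which growth signals set their translation. The runs are shown because this gene group moved together. RefSeq promoter entries on the table's assembly matched 10054 tested genes. Each line gives 30 bases, 10 before the annotated start and 20 from it on, 5′ to 3′, with the run in capitals. The genes were picked for their size of difference and for having a run, except RPS29, the largest ribosomal protein difference without one.
RPL39, chrX:119791611-119791640, reverse strand: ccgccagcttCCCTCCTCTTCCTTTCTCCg
RPS18, chr6:33272065-33272094, forward strand: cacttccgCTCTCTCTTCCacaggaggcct
RPL34, chr4:108620566-108620595, forward strand: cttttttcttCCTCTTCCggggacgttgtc
EIF3K, chr19:38619178-38619207, forward strand: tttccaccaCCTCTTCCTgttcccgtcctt
TAF1D, chr11:93741476-93741505, reverse strand: aatagccaaCCCTTTTCTTCCgcacggttg
RPS29, chr14:49598691-49598720, reverse strand: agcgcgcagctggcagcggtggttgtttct
Capitals mark at least 8 bases made only of C and T, read on the gene's strand, that open with C between 2 bases before the start and the sixth base of the transcript. Of the ribosomal protein genes matched, 33 of 61 (54.1%) had such a run, against 5.07% of all genes tested. The share was 9.56% among genes higher in PNA2, 7.37% of those once ribosomal proteins were left out, and 3.43% among genes lower in PNA2. This definition was settled after values had been seen, and 5 were tried. Under the other 4, with a wider placement and minimum lengths of 5 to 8 bases, the ribosomal protein share ran from 65.6% to 78.7%, that of higher genes from 12.2% to 26.2% and that of all genes from 6.72% to 17.7%. RPS29 lacks these letters in this window only.

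Translation factors leaned to the higher side. Of 43 initiation and elongation factors, 15 were higher and 3 lower, with a median of 0.14. EEF1B2, an exchange factor of elongation, read 11698, 10213, 9803 and 10089.7 in PNA2 and 6484, 6252, 5816 and 6019 in siRNA, without overlap, a log2 difference of 0.85 (SE 0.12). EEF1A1, which delivers aminoacyl-tRNA to the ribosome, differed by 0.77 and EIF3L, a subunit of the initiation factor eIF3, by 0.65. EIF1, which guides start codon choice, read 5126, 11331, 5277 and 5794 in PNA2, with replicate 2 about 2-fold above the rest. Its difference of 0.68 became 0.24 without that replicate, and its call was lost when any 1 of the 4 siRNA libraries was left out.

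Genes that host small nucleolar RNAs, which guide the chemical modification of ribosomal RNA, were higher in 12 of 23 cases and lower in 0, with a median of 0.52. GAS5 (ENSG00000234741, GRCh38 chromosome 1, 173863900 to 173868882, reverse strand), whose spliced RNA is known for being degraded during translation, read 3506, 5934, 3129 and 2884 in PNA2. The siRNA values were 1319, 1262, 1195 and 1309. The log2 difference was 1.62 (SE 0.18, limma adjusted p = 2.48e-05), and 1.30 without PNA2 replicate 2. PNA2 replicate 2 was highest for GAS5 and also for SNHG29, which read 11575, 17522, 10634 and 11165 in PNA2 and 4812, 4757, 5223 and 5062 in siRNA. SNHG29 differed by 1.43, and without that replicate by 1.22. ZFAS1 and SNHG8 differed by 0.96 and 0.86. Against PBS the list median was -0.04 in PNA2, with 5 higher and 6 lower, and -0.51 in siRNA, with 0 higher and 16 lower. SNORD3A, the U3 small nucleolar RNA that is not polyadenylated, read 214, 376, 287 and 181 in PNA2 and 1.39, 4.23, 18.3 and 0 in siRNA. Library kits for both total RNA and mRNA are named in the labels without saying which library had which, and the part of that in these values was not tested. Of the 4 RNAs without a poly(A) tail that were tested, SNORD3A alone was called (log2 difference 5.65, 4.15 with the batches aligned on their PBS libraries).

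Genes that MYC is known to activate were higher in 20 of 53 cases and lower in 1, at a median of 0.20. Without PNA2 replicate 2 the counts were 34 higher and 0 lower with a median of 0.37, so how many pass depends on this library. Calls over all genes also rose without it, to 1890 higher and 2044 lower. Within the shared batch 9 members were higher and 1 lower, with a median of 0.09, beside 1171 higher and 1272 lower of 13448 genes. As a share of all counts the list took 0.993% to 1.28% in PNA2 and 1.14% to 1.18% in siRNA, so the groups overlapped. FBL, the methyltransferase of ribosomal RNA, read 6251, 4850, 6144 and 6245 in PNA2 and 3850.3, 3892, 3983 and 3992 in siRNA, a log2 difference of 0.63 (SE 0.13). IMPDH2, the rate-limiting enzyme of guanine nucleotide synthesis, differed by 0.63 and HK2, which starts glycolysis, by 0.67. CCND2, cyclin D2, had low values of 33.0, 64.4, 83.9 and 97.1 in PNA2 and 21.4, 20.9, 22.4 and 25.5 in siRNA, a log2 difference of 1.46. The lower member was GNL3, a nucleolar GTPase, at -0.41, and without PNA2 replicate 2 it did not pass, at -0.17. Against PBS the list median was -0.19 in PNA2, with 1 higher and 11 lower, and -0.39 in siRNA, with 0 higher and 30 lower. The E-box CACGTG, which reads the same on both strands, stood in 40% of the matched promoter entries of this list, each from 250 bases before to 50 after the start. It stood in 10.3% of all genes tested, 11.3% of genes higher in PNA2 and 9.59% of genes lower, so the called genes lay near the background.

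Of MYC's partners and antagonists, MXI1, which competes for MAX, was higher in PNA2. It read 207, 436, 270.3 and 254 in PNA2 and 126, 128, 127 and 120.5 in siRNA. The log2 difference was 1.27 (SE 0.19), or 0.99 without PNA2 replicate 2. MAX itself did not pass, at 0.08 (95% interval -0.06 to 0.21). MXD3, another antagonist, was lower at -0.92, though its groups overlapped, with values of 698, 242, 393 and 399 and 729, 639, 703 and 669.9. That difference was -0.61 without PNA2 replicate 2 and -1.43 without replicate 1. Its call was lost within the shared batch (limma adjusted p = 0.179), with that batch's PBS libraries added (limma adjusted p = 0.103) and in the 8 PNA2 and siRNA libraries without a batch term (limma adjusted p = 0.0568).

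Ribosome biogenesis factors were higher in 9 and lower in 0 of 46 cases, a share below that of ribosomal proteins, with a median of 0.09. Without PNA2 replicate 2, 27 were higher and the median was 0.30. Within the shared batch the median was -0.04, so its sign changed. TAF1D, a subunit of the factor that places RNA polymerase I, read 1686, 1806, 1342 and 1328 in PNA2 and 1192, 1165, 1069.8 and 1128 in siRNA, a log2 difference of 0.55 (SE 0.10). DDX21, a nucleolar RNA helicase, differed by 0.53. Nucleotide and polyamine synthesis had 5 higher and 1 lower of 28, with a median of 0.04. These were 12, 0 and 0.24 without PNA2 replicate 2, and within the shared batch the median was -0.06.

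Genes that MYC represses or that FOXO factors raise in quiescence were lower in 9 and higher in 1 of 27 cases, with a median of -0.21, and in 9 and 3 without PNA2 replicate 2. Their median against PBS was 0.25 in PNA2 and 0.37 in siRNA.

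Stress response genes that ATF4 governs were higher in 10 and lower in 0 of 29 cases, at a median of 0.55. This rested on 1 library: without PNA2 replicate 2 the median was 0.08, with 8 higher and 4 lower. CEBPB, a transcription factor induced in that response, read 207, 1434, 410.1 and 327 in PNA2 and 98.0, 83.4, 92.3 and 104 in siRNA. CEBPB was picked among genes whose groups do not overlap, and PNA2 replicate 2 was over 3-fold above the next. The log2 difference of 1.98 (SE 0.49) became 0.94 without it, and was 1.11 with the batches aligned on their PBS libraries. ATF4 itself read 6335, 14814, 6330.3 and 6536 in PNA2 and 4878, 4851, 4968 and 4763 in siRNA, with replicate 2 again far above, and its difference of 0.74 was 0.27 without that library. GPT2, a transaminase, differed by 0.91, and by 0.62 without replicate 2. PSAT1, which makes serine, differed by 0.83, and by 0.35 without replicate 2. For DDIT4, an inhibitor of mTORC1 signalling, the values were 0.78 and 0.43.

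Enzymes of serine and one-carbon metabolism had 6 higher and 0 lower of 17, with a median of 0.36 that fell to 0.13 without PNA2 replicate 2. MTHFD1L, which makes formate in mitochondria, read 649, 721, 514 and 662 in PNA2 and 364, 386, 378 and 369 in siRNA. Its groups did not overlap, and its log2 difference was 0.87 (SE 0.10). SHMT2, the mitochondrial serine hydroxymethyltransferase, differed by 0.55. Aminoacyl-tRNA synthetases, which charge tRNAs, were higher in 9 and lower in 1 of 23 cases, with a median of 0.23 and of 0.14 without that replicate.

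NF-kB subunits and targets were the largest group on the lower side by list count, with 21 of 32 lower, 1 higher and a median of -0.64. As a share of all counts the list took 0.139% to 0.190% in PNA2, 0.254% to 0.259% in siRNA and 0.194% to 0.239% in PBS, so PNA2 lay below PBS and siRNA above it. TNFAIP2 (ENSG00000185215, GRCh38 chromosome 14, 103123442 to 103137439, forward strand), a TNF-induced gene, read 64.8, 25.7, 273 and 270.4 in PNA2 and 461, 494, 572 and 481 in siRNA. For TNFAIP2 the PNA2 libraries of the first batch were lowest. Its log2 difference was -3.06 (SE 0.41, limma adjusted p = 0.000115), and -2.43 without PNA2 replicate 2. With the batches aligned on their PBS libraries it was -1.63. That aligned value is given because PBS libraries also differed by batch for this gene, at 124, 115 and 337 in the first and 385, 297 and 324 in the second.

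MIR155HG (ENSG00000234883, GRCh38 chromosome 21, 25561909 to 25575168, forward strand), the host transcript of the oncogenic miRNA miR-155, read 42.8, 112, 298 and 279 in PNA2 and 459, 496, 486 and 464 in siRNA. The difference was -2.24 (SE 0.34, limma adjusted p = 0.000328). BIRC3, an inhibitor of cell death in the TNF pathway, read 1506, 476, 2557 and 2473 in PNA2 and 4206, 4183, 3716 and 3961 in siRNA, a difference of -1.86 that was -1.21 without PNA2 replicate 2. ICAM1, an adhesion molecule, read 417, 504, 1067 and 996 in PNA2 and 1627, 1786, 1757 and 1777 in siRNA and differed by -1.68 (SE 0.15). Over the 29 alternatives described below that difference ran from -1.93 to -1.29. The member that was higher was NFKBIB, a cytoplasmic inhibitor of NF-kB, at 0.43. The subunits NFKB1, RELA and REL did not pass, at -0.17, 0.14 and -0.24. Against PBS the list had 1 higher and 17 lower in PNA2 (median -0.38) and 13 higher and 0 lower in siRNA (median 0.35).

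An NF-kB consensus stood, on either strand, within the 250 bases before the start of 9 of 27 list members with an entry (33.3%). It stood in 5.8% of all genes tested, 4.03% of genes higher in PNA2 and 6.08% of genes lower. Genes lower in PNA2 as a whole thus lay near the background. Of 2 patterns tried, a first one over the whole entry gave the list the same 33.3% and all genes 8.83%. The lines show, for members lower in PNA2 that hold the consensus, the first match in capitals with 10 bases on each side, on the gene's strand.
BIRC3, chr11:102317275-102317304, forward strand: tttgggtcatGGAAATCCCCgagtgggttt
CCL22, chr16:57358588-57358617, forward strand: agagttgaggGGGGGTCCCCtctgagtggt
CFLAR, chr2:201118609-201118638, forward strand: cgcggggggcGGGGAATTCCgcagacagga
NFKBIA, chr14:35404811-35404840, reverse strand: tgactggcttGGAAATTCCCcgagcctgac
NFKBIZ, chr3:101827757-101827786, forward strand: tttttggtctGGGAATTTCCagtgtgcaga
TNFAIP3, chr6:137867182-137867211, forward strand: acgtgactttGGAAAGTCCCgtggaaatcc
Counted back from the start, the match begins at position -81 in NFKBIA, which encodes the main inhibitor of NF-kB and is among its own targets, and at -67 in TNFAIP3, a brake on the pathway. Their log2 differences were -0.58 and -1.15, that of NFKBIA being -0.37 without PNA2 replicate 2. CCL22, a chemokine, differed by -1.35, NFKBIZ, a nuclear cofactor, with a 95% interval of -1.31 to -0.69, and CFLAR, an inhibitor of caspase 8, by -0.92. A match is a description of letters and no evidence of binding in these cells.

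Genes of STAT3 and cytokine feedback were lower in 10 and higher in 0 of 16 cases, with a median of -0.93. IL10RA, the interleukin 10 receptor chain, read 1173, 1562, 2239.6 and 2080.1 in PNA2 and 3419.9, 3425, 3686 and 3516 in siRNA, without overlap. Its difference was -1.40 (SE 0.16, limma adjusted p = 3.79e-05), and ran from -1.53 to -0.98 over the 29 alternatives described below. BATF, a partner of JUN proteins in lymphocytes, read 78.0, 78.0, 181 and 165 in PNA2 and 251, 249, 258 and 261 in siRNA and differed by -1.32. SOCS1, a feedback inhibitor of JAK kinases, differed by -1.59, and by -0.87 with the batches aligned. SOCS3, of the same family, read 0, 5.19, 91.6 and 86.2 in PNA2 and 150.4, 224, 192 and 192 in siRNA. Its fitted difference of -6.33 depends on values at 0 in the first batch and is no measure of size, and with the batches aligned it was -1.55. Against PBS the list median was -0.06 in PNA2 and 0.39 in siRNA.

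Germinal centre genes mark the B cell stage from which many of these lymphomas arise, and 14 of 20 were lower in PNA2 with 0 higher, at a median of -0.96. Without PNA2 replicate 2 the median was -0.59, with 13 lower and 1 higher. Relative to PBS, the list median was -0.20 in PNA2 (1 higher, 5 lower) and 0.41 in siRNA (9 higher, 0 lower). RGS13, which dampens chemokine receptor signals, read 1536, 697, 2024 and 1872 in PNA2 and 3133, 3427, 2775 and 3217 in siRNA. Its difference was -1.53 (SE 0.18), or -1.18 without PNA2 replicate 2. SERPINA9, a protease inhibitor of germinal centre cells, differed by -2.05, by -1.44 without PNA2 replicate 2 and by -1.36 with the batches aligned. BCL6, the repressor that holds cells at this stage, read 1969, 442, 1963 and 1794 in PNA2 and 2576, 2728, 2576 and 2661 in siRNA. Its difference of -1.33 was -0.66 without replicate 2. ELL3, an elongation factor, moved from -1.81 to -0.81 on that step, and its call was lost without siRNA replicate 4 at -1.65.

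Plasma cell genes were lower in 11 of 18 cases, with 0 higher and a median of -0.59. Compared with PBS, the list median was -0.14 in PNA2 (0 higher, 4 lower) and 0.40 in siRNA (8 higher, 0 lower). ELL2, which promotes antibody secretion, read 300.1, 304, 644 and 651 in PNA2 and 1091, 1100.4, 1156 and 1113 in siRNA. No PNA2 value came near the siRNA range, and the difference was -1.75 (SE 0.10, limma adjusted p = 2.44e-07). PNA2 values were lower in the first batch, and over the 29 alternatives described below the difference ran from -1.89 to -1.20. SDC1, the plasma cell surface marker CD138, read 141, 98.3, 215 and 194 in PNA2 and 423, 367, 416 and 386 in siRNA, a difference of -1.92, and -1.13 with the batches aligned. PRDM1, the master regulator of the plasma cell state, differed by -1.77, and by -1.05 when aligned. CD38, a surface enzyme, differed by -0.90, and by -0.42 without PNA2 replicate 2. Germinal centre and plasma cell genes, which mark opposite stages, were thus both lower in PNA2 than in siRNA.

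B cell identity genes had 1 higher and 10 lower of 29, with a median of -0.33. Without PNA2 replicate 2 the counts were 4 and 9 and the median -0.02, so its size rests on that library. Measured from PBS, the list median was -0.09 in PNA2 (4 higher, 3 lower) and 0.27 in siRNA (11 higher, 1 lower). CD79B, a signalling chain of the B cell receptor, read 2119, 1503, 2314 and 2129 in PNA2 and 3249, 3226, 3484 and 3071 in siRNA, a difference of -0.88 (SE 0.13). CD22, an inhibitory receptor, read 2777, 487, 2755 and 2587 in PNA2, with replicate 2 more than 5-fold below the rest, and 3403, 3578, 3406 and 3290.2 in siRNA. Its difference was -1.32 with all libraries and -0.51 without that replicate, and the call was lost without siRNA replicate 2 at -1.30. BANK1, a scaffold of that receptor, moved from -2.07 to -1.30 without PNA2 replicate 2, and was -1.25 with the batches aligned. MS4A1, CD79A and PAX5 did not pass, at -0.51, 0.13 and -0.14. B cell receptor signalling had 1 higher and 8 lower of 24, and 3 and 7 without that library. Its median was -0.17, and -0.02 without PNA2 replicate 2, and RASGRP3, which activates RAS after receptor signals, differed by -0.91.

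MHC class I genes present peptides to T cells, and 5 of 13 were lower, 0 higher, with 8 lower without PNA2 replicate 2. Their median against PBS was 0.07 in PNA2 (1 higher, 1 lower) and 0.32 in siRNA (6 higher, 0 lower). HLA-B read 1281, 1220.4, 1483 and 1359.7 in PNA2 and 1915, 2066, 1961 and 1691 in siRNA, a difference of -0.64 (SE 0.08). MHC class II had 2 higher and 0 lower of 11, with a median of 0.01 that was 0.26 without that library. Interferon-induced genes had 4 higher and 8 lower of 31, with a median of -0.28, and 3, 16 and -0.56 without it. IFIH1, a sensor of double-stranded RNA, read 102, 110.1, 148 and 143 in PNA2 and 219, 211, 220 and 249.6 in siRNA, a log2 difference with a 95% interval of -1.25 to -0.76. OAS1 and OAS3, synthases that respond to the same kind of RNA, differed by -0.88 and -1.42, the latter -0.94 with the batches aligned. Against PBS the interferon list had 9 higher in PNA2 (median 0.39) and 17 higher in siRNA (median 0.66).

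**Figure D4:**
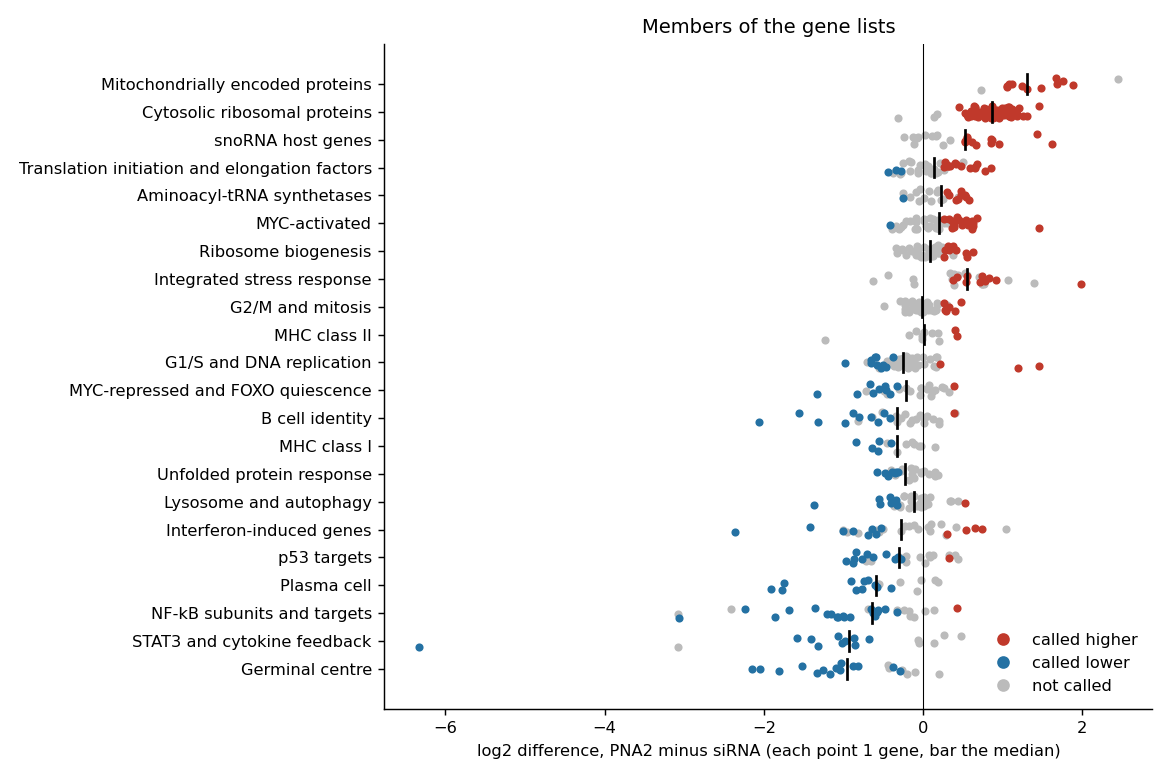
Log2 difference, PNA2 minus siRNA, of each tested member of selected gene lists (1 point per gene, horizontal axis in log2 units; colour marks the call, the bar the median). Most ribosomal proteins lie in a band around 0.87, while most NF-kB and germinal centre genes spread below 0.

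Targets of p53, which halts or kills damaged cells, had 11 of 26 lower and 1 higher, with a median of -0.30. Set against PBS, the list median was -0.04 in PNA2 (2 higher, 1 lower) and 0.31 in siRNA (10 higher, 1 lower). TP53INP1 read 465, 448, 536 and 488 in PNA2 and 762, 793, 760.5 and 779 in siRNA, a difference of -0.87 (SE 0.10). FAS, the death receptor, differed by -0.89. RRM2B, a ribonucleotide reductase subunit, differed by -0.96, and by -0.52 without PNA2 replicate 2. The member that was higher was TRIAP1, at 0.32. CDKN1A and BAX did not pass, at -0.72 and 0.03. CDKN1A, which halts the cell cycle, did pass without PNA2 replicate 2, at -1.55.

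In the BCL2 family, the survival genes MCL1, BCL2L1 and BCL2A1 were lower and no member was higher among 17 tested, a share of 17.6% lower beside 12.4% of all genes. Leaving out PNA2 replicate 2 gave 7 lower, and the list median of -0.16 was 0.00 within the shared batch. Relative to PBS, the median was -0.05 in PNA2 (2 higher, 2 lower) and 0.12 in siRNA (4 higher, 1 lower). MCL1, a short-lived inhibitor of cell death, read 25610.3, 13136, 30593 and 29654 in PNA2 and 44676, 44301, 43655 and 45596 in siRNA. The groups did not overlap, and the difference was -1.15 (SE 0.18, limma adjusted p = 0.000326), or -0.82 without PNA2 replicate 2. BCL2L1 differed by -0.88, and by -0.58 without PNA2 replicate 2. For BCL2A1 the values were -1.20 and -0.48. BCL2 itself did not pass, at -0.23 (95% interval -0.45 to -0.01), and passed without PNA2 replicate 2 at -0.29.

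G1/S and replication genes had 3 higher and 10 lower of 51, with a median of -0.25. These became 9, 7 and 0.04 without PNA2 replicate 2. CCNE2, cyclin E2, read 766, 244, 673 and 616 in PNA2 and 923, 945, 916 and 869 in siRNA, and its difference of -0.99 became -0.49 without that replicate. E2F1, a driver of S phase, moved from -0.65 to -0.38. Mitotic genes had 6 higher (13.6%, beside 11.5% of all genes) and 0 lower of 44, with a median of -0.01. Of these CKS1B, a subunit of cyclin-dependent kinases, differed by 0.40 and CCNB2, a mitotic cyclin, by 0.32. Without PNA2 replicate 2, 15 mitotic genes were higher and the median was 0.17.

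Of genes outside these programmes, the largest differences by the fixed rule included several on the lower side that rest on few libraries. SSTR2, a somatostatin receptor, read 146, 0, 317 and 299.8 in PNA2 and 448, 529.9, 451 and 484 in siRNA. The value of 0 in PNA2 replicate 2 drives its difference of -3.90, which was -1.21 without that library, and the call was lost on leaving out any 1 siRNA library. PDZRN4 read 213, 0, 299 and 283 in PNA2 and 440.2, 486, 432 and 430.1 in siRNA, and moved from -3.69 to -0.94 in the same way, its call also lost without any 1 siRNA library. LOXL2, a lysyl oxidase of the extracellular matrix, read 1448, 15.8, 1524 and 1446 in PNA2 and 2151, 2232, 2298 and 2246 in siRNA. Its difference of -2.90 was -0.66 without PNA2 replicate 2, and 9 of the 14 single-library omissions ended its call. MYBL1, a germinal centre transcription factor, read 591, 17.7, 457 and 425 in PNA2 and 666, 666, 622 and 658 in siRNA, and 12 of 14 omissions ended the call. Its difference of -2.15 was -0.54 without PNA2 replicate 2 and -3.23 without replicate 1. With the batches aligned, PDZRN4, LOXL2 and MYBL1 differed by -2.21, -1.79 and -1.16.

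The calls of ACSS2, PTAFR, MATK and C11orf54 held with each of the 14 libraries left out in turn. ACSS2, which makes acetyl-CoA from acetate, read 188, 78.0, 336 and 349 in PNA2 and 653, 697, 753 and 643 in siRNA, a difference of -2.35 (SE 0.24), or -1.34 with the batches aligned. PTAFR, the receptor of platelet-activating factor, differed by -2.26, and by -1.31 when aligned. MET, a receptor tyrosine kinase, read 23.6, 203, 161 and 154 in PNA2 and 266, 270.4, 291 and 297 in siRNA. Its difference of -2.30 was -1.64 and no longer called without PNA2 replicate 1. On the higher side MATK, a kinase that restrains SRC family kinases, read 324, 273, 409 and 410.2 in PNA2 and 111, 125, 131 and 117 in siRNA, a difference of 1.55 (SE 0.20). C11orf54 differed by 1.46.

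**Figure D5:**
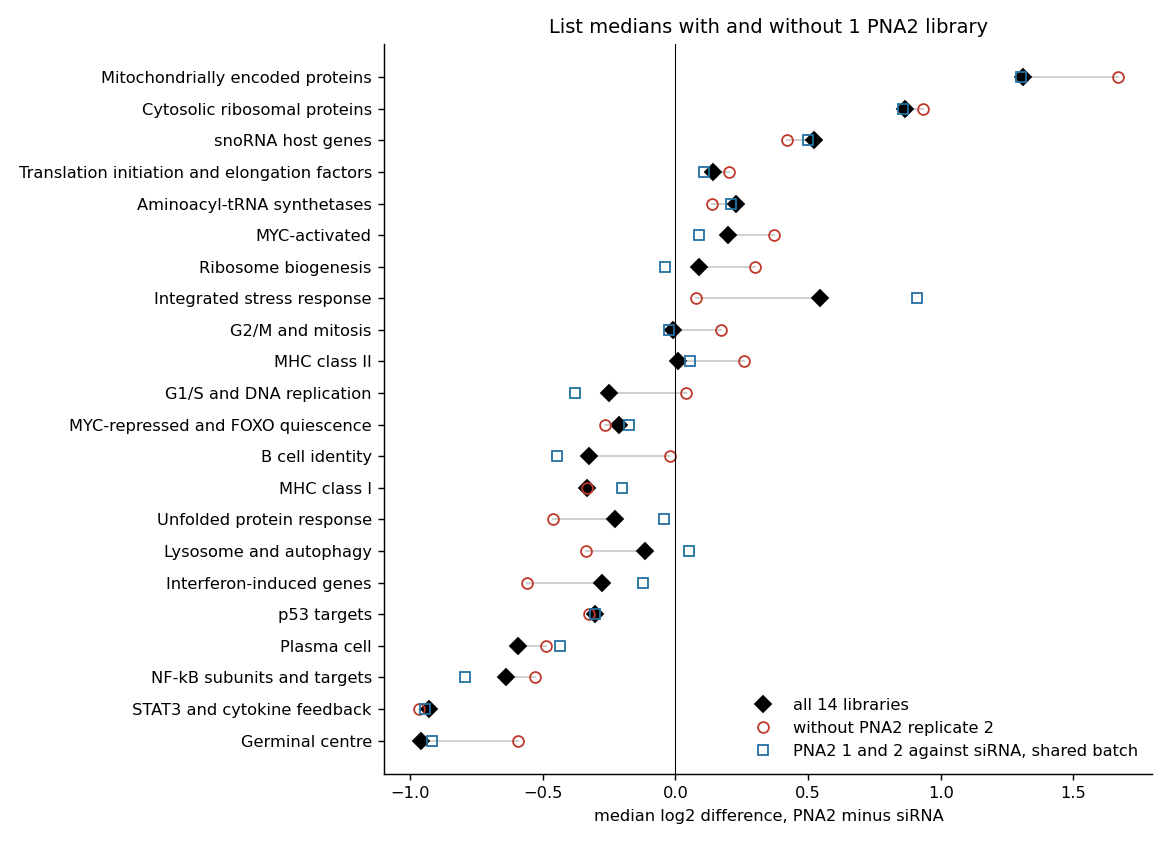
Median log2 difference, PNA2 minus siRNA, of gene lists (horizontal axis) with all 14 libraries (diamonds), without PNA2 replicate 2 (circles) and within the shared batch (squares). The integrated stress response median moves from 0.55 to 0.08 without PNA2 replicate 2, while the ribosomal protein median moves from 0.87 to 0.93.

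The labelled cell type was checked against its markers. The B cell markers MS4A1, CD79A, CD79B, PAX5 and CD22 were all tested, with a summed share of 0.184% to 0.291% in PNA2, 0.305% to 0.319% in siRNA and 0.247% to 0.271% in PBS. Of the markers of other cells, 5 of 21 T and NK cell genes, 0 of 18 myeloid, 0 of 15 erythroid and 3 of 16 stromal genes passed the filter on low values. At 0 in all 14 libraries were 5, 8, 7 and 3 of these lists. In these bulk libraries fewer cells of a kind and less RNA per cell cannot be told apart.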

How the data were processed

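RNA of U2932 cells was extracted with a Qiagen RNeasy kit and sequenced on a NextSeq 500 after TruSeq stranded preparation, per the labels' protocols. The submitters' processing notes name the build GRCh38 and, with no order or role, DESeq2, HTSeq 0.11.0, HISAT2 2.2.1, Trimmomatic and SAMtools 1.7. The deposited 48 h table holds other values than counts: from the values themselves, they read as counts shifted per gene and batch with depth left in, and the step the authors used is not given in the sources used here. In its 61541 genes, values that are not whole occur in 21877 and values below 0, down to -223.8, in 5099. Batches were read from ties among 9646 low genes, with equal values in 19.3% to 32.4% of genes within a batch and 0% between batches. One header names 2 PBS columns, which were used as unnumbered PBS libraries. GENCODE 29 holds 58366 of the gene ids, and 74 altered symbols were restored from it.

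Values below 0 were set to 0 and libraries scaled by trimmed mean of M values. The log2 of value plus 1 was tested with limma 3.58.1 (R 4.3.3) with a mean-variance trend, group and batch as terms, over all 14 libraries. Tested genes reached 10 in no fewer than 4 libraries, and p-values were adjusted over all 14136 by Benjamini-Hochberg, with a threshold of 0.05. Alignment on PBS adds, per gene, the difference between the mean PBS values of the batches to the first batch. On simulated data for this comparison, with 14136 genes, the fit recovered 88% of genes changed 2-fold and 26% of those changed 1.5-fold, with 2.56% of calls false. That recovery fell short of a limit set for this check beforehand, and the limit was dropped while the fit was kept. The simulation used a single spread for all genes, with no batch shift and no library that stands apart. Its rates may therefore not hold for these libraries.

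The members, gene lists and tests were chosen with earlier results of these data known, so no list stands as independent support. Named genes were MYC, the 12 largest differences in each direction among genes with a scaled mean of 200 or more, no overlap between groups, the same sign in the shared batch and the same call when aligned, and up to 4 called members per list. GNL3, NFKBIB, TRIAP1, ATF4, SNORD3A, the NF-kB genes shown with sequence and members named as not passing were chosen after their values were seen. The 29 alternatives cover scaling, batch handling, filters, pseudocounts and each library left out. One B cell marker chosen for the check of the cell type is not reported here and was left out of the marker sum, so that check covers only the markers named.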

Additional observations from a re-analysis of the deposited data

Results flagged for a closer look

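Of 78 groups of 4 to 6 libraries checked, in 3 a single library lay farther from the rest than Dixon's 95% limit allows, and each was PNA2 replicate 2. Chance alone gives about 1 such group in 20. CEBPB read 1433.55 there, against 207 to 410 in the other PNA2 libraries. SNHG29 read 17522, against 10634 to 11575. LOXL2 read 15.8, against 1446 to 1524. What sets this library apart was not tested.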

How the results depend on the processing

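The counts of 1630 higher and 1746 lower genes ran from 1221 to 1890 and from 1350 to 2044 when single libraries were left out. Without rescaling the counts were 700 and 1085, and 39.2% of calls were higher in place of 48.3%. With the replicate block over the 12 numbered libraries they were 890 and 923 (MYC difference 1.03), against 1580 and 1657 in those libraries without it. Deviations of libraries with the same number correlated at -0.443 to 0.167, and those of libraries with different numbers at -0.500 to 0.605. The check thus shows no pairing by number, and with so wide a spread it cannot exclude one. MYC kept its direction and call in all 29 alternatives, from 0.91 to 1.26. The mitochondrial share difference was 2.85 to 3.27 percentage points with single libraries left out and 3.41 in the shared batch, where 0.0667 is the smallest p the test can give. Of 175 named genes, 82 were called in every alternative that tested them and 93 lost a call in at least 1. Over 5062 pairs of gene and alternative, 523 lost the call and 1 changed sign: ACTG1, a cytoplasmic actin, at -0.21 after quantile normalization. List medians kept their sign in every alternative for 27 of 47 lists. After quantile normalization the medians of mitochondrially encoded and ribosomal protein genes fell from 1.31 to 0.74 and from 0.87 to 0.54. With the replicate block 62 of the 175 named calls were lost, against 16 in the same 12 libraries without it. Within the shared batch, which has fewer libraries, 51 were lost. These included SSTR2, PDZRN4, LOXL2, MET, MYBL1, CCND2, MXD3, BCL6, EIF1, PSAT1, CCNE2, E2F1, DDIT4, SOCS1, CD22, ELL3 and CD38. Without a batch term, in all 14 libraries, 33 were lost. Among these were SSTR2, PDZRN4, LOXL2, MET, MYBL1, BCL6, OAS3, SOCS1, SOCS3, CD22, ELL3 and PRDM1. No alternative moved the median of all genes by over 0.1. All siRNA libraries share a batch, so PNA2 replicates 3 and 4 enter a fitted difference only by way of the PBS libraries of both batches. Only PNA2 replicates 1 and 2, the second of which stands apart, are compared with siRNA directly. Differences of 1.5-fold were mostly missed on simulated data, whose spread was not taken from these libraries. A gene that did not pass is not shown to be equal.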

Other observations

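Lists of the unfolded protein response and of lysosomes had more members lower than higher in PNA2 when set against siRNA. Their medians against PBS were -0.05 and 0.18 in PNA2, and 0.18 and 0.29 in siRNA. Within the shared batch their PNA2 minus siRNA medians were -0.04 and 0.05, with 2 and 4 lower and 0 and 1 higher. Heat shock chaperones, another list of protein folding, had 3 higher and 1 lower of 17, with a median of 0.04. Unfolded protein response genes had 7 of 24 lower and 0 higher (median -0.23). XBP1, its transcription factor, read 4577, 4322, 3663 and 3532 in PNA2 and 6015, 5586, 5359 and 5466 in siRNA, a log2 difference of -0.58. Without PNA2 replicate 2, 17 were lower. Lysosome and autophagy genes had 7 of 33 lower and 1 higher, and 22 lower without that replicate. Replication histones had 3 of 21 lower, a share of 14.3% beside 12.4% of all genes, and 2 lower with the batches aligned. H1-2, a linker histone among the 3, differed by -1.26. Proteasome subunits had 2 higher and 7 lower of 38, and 6 higher and 3 lower without PNA2 replicate 2, so the balance turned.

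Of the other lists given here, all but immediate early genes had few calls or shares near those of all genes. Glycolysis had 2 higher and 2 lower of 22, beside background shares of 11.5% and 12.4%. Cholesterol synthesis had 4 higher and 3 lower of 24, and 2 and 6 without PNA2 replicate 2. For the actin cytoskeleton the counts were 5 and 4 of 35, and 10 and 3 without it. Splicing factors had 0 higher and 3 lower of 29, and 1 and 1 without it. Of 27 immediate early genes, 3 were higher and 8 (29.6%) lower, a share of lower genes above the background. Within the shared batch 2 of them were higher and 3 lower, with a median of -0.07, beside 1272 lower of 13448 genes tested there.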
